A study of Mus musculus with 4 samples.

Results

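Protein phosphatases and dual-specificity phosphatases were examined in mouse EML cells, a lymphohematopoietic progenitor line whose growth depends on stem cell factor (SCF), which binds and activates the tyrosine kinase receptor KIT. Members were all genes whose single platform symbol begins with Dusp, Ptpn, Ptpr, Ptp4a, Ppp or Ppm1 and continues as in those families. This gave 73 of the 6404 genes measured, read by 99 of 10861 probe sets; 52 members had 1 probe set and 21 had several. By name 46 members belong to phosphatase families, 26 are regulatory subunits of serine/threonine phosphatases, and Ptprcap, a protein associated with CD45, is no phosphatase at all. The label therefore covers enzymes and their partners alike.

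The 4 groups were EML cells with the D816V KIT mutant and SCF at 250 ng/mL for 48 hours, D816V cells without added agent, cells with the Del417-419insY KIT mutant under the same SCF treatment, and Del417-419insY cells without added agent. D816V lies in the phosphotransferase domain of KIT and Del417-419insY in its extracellular domain. All 4 groups had been transduced with retroviral KIT constructs, selected with geneticin, grown on without growth factor until autonomous, and sorted for KIT, so none is an untransduced control and each mutant is 1 selected population. EML cells also have their own Kit gene. Each group had 1 array.

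The deposited log2 values have a zero of their own for each probe set. A gene can thus be compared between arrays, whereas its absolute level cannot be read. The value of a gene is the mean of its probe sets. Array medians lay between -0.20, on the array of D816V cells with SCF, and -0.015, on that of Del417-419insY cells without SCF. The array of D816V cells with SCF also had the widest spread. Because zeros are relative, whether progenitor or mast cell markers were present could not be judged. Between the lines, 6 of 7 measured mast cell markers were called higher in D816V cells and none lower, and of 4 measured stem and progenitor markers 1 was called higher and 3 lower. Called lower were also 4 of 5 erythroid markers, 1 of 3 granulocyte and monocyte markers and 3 of 4 megakaryocyte markers, of which the other was higher, as was the 1 lymphoid marker measured. The part of these shifts in the phosphatase results was not tested. In such bulk RNA a change in the make-up of a culture and a change in RNA per cell cannot be told apart.

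Protein phosphatases remove the phosphate groups that kinases such as KIT and its downstream cascades attach. Dual-specificity phosphatases act on both tyrosine and serine/threonine residues, and those called MAP kinase phosphatases switch off ERK, JNK and p38; several are themselves induced by ERK signalling and so form a feedback loop. Classical tyrosine phosphatases are either cytoplasmic (Ptpn) or membrane-spanning (Ptpr). Serine/threonine phosphatases of the Ppp families combine a few catalytic subunits with many regulatory ones, while the PPM enzymes act as single chains.

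D816V cells and Del417-419insY cells differed in many phosphatase genes, in both directions, and by moderate amounts apart from 1 gene. The limma fit over all 4 arrays, which adds up a genotype and an SCF term, called 16 members higher in D816V cells and 19 lower at an adjusted p under 0.05, and left 38 uncalled. Over all genes it called 17.9% higher and 24.7% lower, together 42.6%, close to the members' 21.9% and 26%, so the members' shares are near the background. The same shares of all genes are the background for each count by role below. The median difference of the members was -0.20, beside -0.10 for all genes. The balance rests on how the arrays are scaled: 21 higher and 13 lower members after cyclic loess, 19 and 12 after quantile normalization, 23 and 14 with array medians set to 0. No called member changed sign under these scalings. The fit has no replicate arrays. It takes the difference between the SCF responses of the lines for error, with 1 residual degree of freedom. This error is drawn toward a prior of 4.1 degrees of freedom shared by all genes, which in part sets each standard error. The p-values leave out the spread between repeat cultures. At an unadjusted p under 0.05 the count was 41 of 73, beside 54.4% of all genes.

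**Figure D1:**
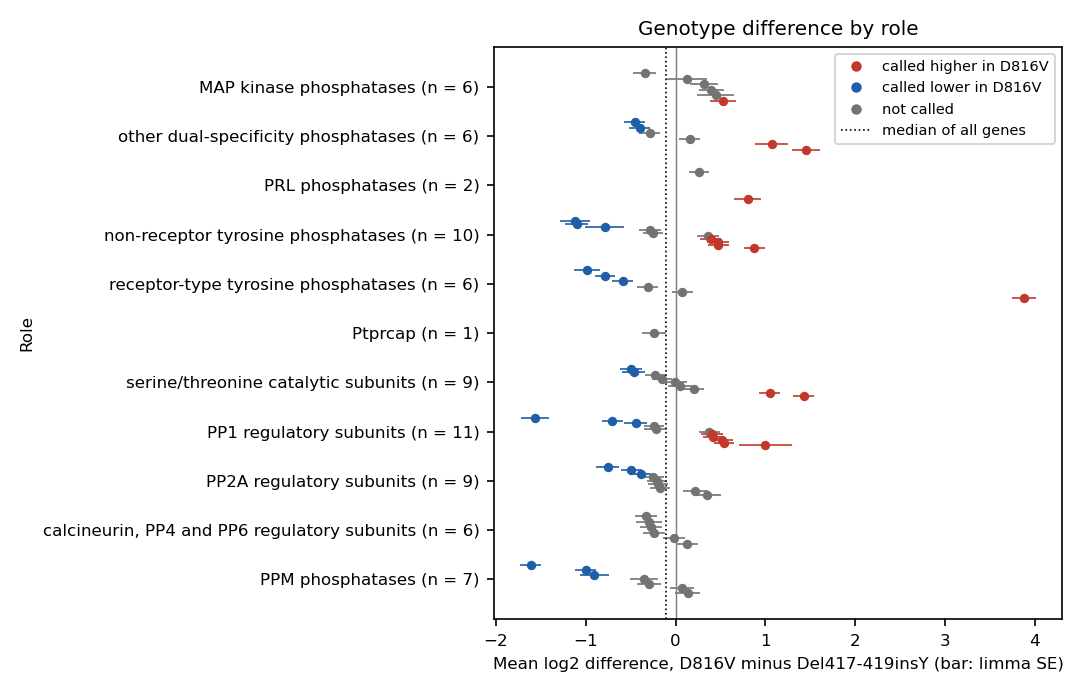
Mean log2 difference of each phosphatase gene, D816V minus Del417-419insY, over both SCF conditions (x axis), by role (y axis). Points are genes, bars are limma standard errors and the dotted line is the median of all genes. Ptprg at 3.88 lies far to the right. The PPM row holds 3 genes called lower and none called higher, where 24.7% of all genes were called lower and 17.9% higher.

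Among receptor-type tyrosine phosphatases 1 of 6 was called higher and 3 lower in D816V cells. Ptprg, a receptor phosphatase with a carbonic anhydrase-like extracellular domain, had log2 values of 3.60 with SCF and 3.66 without SCF in D816V cells, against -0.45 and -0.06 in Del417-419insY cells with and without SCF. Both D816V arrays thus stood far above both Del417-419insY arrays, whatever the SCF condition. The mean difference was 3.88 (SE 0.13), or 14.7-fold, with a limma adjusted p of 0.000136. It rests on 1 probe set, and cyclic loess reduced it to 2.68 and quantile normalization to 3.21. The bases upstream of one of the 2 Ptprg starts in RefSeq are shown because no other member differed as much:
Ptprg: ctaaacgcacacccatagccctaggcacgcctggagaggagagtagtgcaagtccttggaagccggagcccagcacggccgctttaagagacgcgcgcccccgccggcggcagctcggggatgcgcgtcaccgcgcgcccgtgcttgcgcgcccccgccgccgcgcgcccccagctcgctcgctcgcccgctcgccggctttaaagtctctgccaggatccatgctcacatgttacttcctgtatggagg
This stretch is chr14:11553303-11553552 on the plus strand of GRCm38.p6, the 250 bases before the start, written 5′ to 3′, and 68.4% of it is G or C. It held none of the 4 motifs searched, which are given with the MAP kinase phosphatases.

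The other receptor types were level or lower in D816V cells. Ptprk, an adhesion-type receptor phosphatase, had -0.49 with SCF and -0.14 without SCF in D816V cells, against 0.69 and 0.65 in Del417-419insY cells (difference -0.99, SE 0.14, limma adjusted p = 0.00702). Ptprc encodes CD45, the abundant phosphatase of blood cells that activates Src-family kinases; it was -0.22 and -0.05 in D816V cells with and without SCF, against 0.44 and 0.45 in Del417-419insY cells (difference -0.59, SE 0.12, limma adjusted p = 0.0172). For each of these genes the lines did not overlap. Ptprv was lower by a like amount (-0.79). Ptpre (-0.31) and Ptpra (0.07), close relatives that act on Src-family kinases, did not pass. Ptprcap, the CD45-associated protein, differed by -0.24 and was not called either.

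Of 10 non-receptor tyrosine phosphatases 4 were called higher and 3 lower in D816V cells. Ptpn9, an enzyme of secretory vesicles, had 1.08 with SCF and 0.94 without SCF in D816V cells, against 0.17 and 0.10 in Del417-419insY cells (difference 0.88, SE 0.12, limma adjusted p = 0.00514). Ptpn2, the T-cell phosphatase that dephosphorylates JAK kinases and STATs, was 0.91 and 0.49 in D816V cells with and without SCF, against 0.35 and 0.10 in Del417-419insY cells (difference 0.47, limma adjusted p = 0.0317). The D816V arrays lay above the Del417-419insY arrays for these genes. Ptpn23, which sorts receptors on endosomes, and Ptpn12, which acts on adhesion proteins, were higher by 0.48 and 0.39.

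On the lower side, Ptpn14, a regulator of the YAP pathway, had -0.13 with SCF and -0.11 without SCF in D816V cells, against 1.28 and 0.73 in Del417-419insY cells (difference -1.12, SE 0.17, limma adjusted p = 0.00793). Ptpn4, a FERM-domain phosphatase, differed by -1.10 (SE 0.13), with -0.79 and -0.51 in D816V cells against 0.44 and 0.46 in Del417-419insY cells, SCF arrays first. Here the D816V arrays lay below those of Del417-419insY cells. Ptpn22, the lymphoid phosphatase that restrains Src-family kinases, was -0.86 with SCF and -0.33 without SCF in D816V cells, against 0.33 and 0.05 in Del417-419insY cells; its genotype difference was -1.20 with SCF and -0.38 without SCF (mean -0.79, limma adjusted p = 0.0369). Ptpn6, which encodes SHP-1, a known brake on KIT signalling, had -0.35 with SCF and -0.42 without SCF in D816V cells, against 0.04 and -0.25 in Del417-419insY cells. Its difference of -0.28 did not pass the test (limma adjusted p = 0.118). The 2 probe sets of Ptpn6 gave -0.12 and -0.45. With the first, whose name ends in _x_at, left out, the difference was -0.45 and still was not called. Ptpn3 (0.36), also of the FERM type, and Ptpn18 (-0.25) did not pass either.

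The 2 measured PRL phosphatases, small membrane-attached enzymes linked to cell growth, both lay higher in D816V cells, and 1 passed. Ptp4a3 had 0.28 with SCF and -0.06 without SCF in D816V cells, against -0.74 and -0.65 in Del417-419insY cells (difference 0.80, SE 0.15, limma adjusted p = 0.0136). Ptp4a2 differed by 0.26 and was not called.

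Calcineurin, the calcium-dependent phosphatase that activates NFAT, had catalytic subunits that were called higher in D816V cells and one that was not called. Ppp3ca, its alpha catalytic subunit, had 0.46 with SCF and 0.08 without SCF in D816V cells, against -1.0 and -1.32 in Del417-419insY cells. Ppp3cc, the gamma catalytic subunit, had 1.16 and 0.77 in D816V cells with and without SCF, against 0.12 and -0.29 in Del417-419insY cells. Both genes were higher on each D816V array than on either Del417-419insY array. The differences were 1.43 (SE 0.11, limma adjusted p = 0.00118), or 2.69-fold, and 1.05 (SE 0.11, limma adjusted p = 0.00297), or 2.07-fold. The 2 probe sets of Ppp3ca gave 1.53 and 1.33, those of Ppp3cc 1.49 and 0.61. The beta subunit Ppp3cb differed by -0.23 and the regulatory subunit Ppp3r1 by -0.02, and neither passed. Their probe sets lay on both sides of 0, with -0.44, -0.31, -0.27 and 0.12 for Ppp3cb and 0.035 and -0.076 for Ppp3r1. Whether the subunits differ from each other was not tested.

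Among the other serine/threonine catalytic subunits, the PP1 genes Ppp1cc and Ppp1cb were called lower in D816V cells, by -0.50 and -0.47, with limma adjusted p-values of 0.0295 and 0.0403. Ppp1cc was not called after cyclic loess or quantile normalization, and Ppp1cb not after quantile normalization or with array medians set to 0. Ppp1cb rests on 1 probe set, whose name ends in _x_at, so it is absent from the fit without such probe sets. The catalytic subunits of PP2A (Ppp2cb), PP4 (Ppp4c), PP5 (Ppp5c) and PP6 (Ppp6c) had differences between -0.15 and 0.20 and were not called.

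PP1 obtains its targets from regulatory subunits, and of 11 measured 5 were called higher and 3 lower in D816V cells. Ppp1r14c, an inhibitor of PP1, had -2.84 with SCF and -2.67 without SCF in D816V cells, against -1.03 and -1.35 in Del417-419insY cells. The D816V arrays were the lower ones (difference -1.57, SE 0.16, 2.96-fold lower, limma adjusted p = 0.00237). After cyclic loess the difference was -0.91, and it was -0.93 with SCF and -0.88 without SCF. Ppp1r7, a conserved partner of PP1 needed in mitosis, was lower by -0.70, and Ppp1r15b, which directs PP1 to the translation factor eIF2 alpha, by -0.44. Ppp1r15b lost its call after each of the 3 scalings.

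On the higher side Ppp1r16b, a membrane-anchored targeting subunit also known as TIMAP, had 0.08 with SCF and 0.49 without SCF in D816V cells, against -0.31 and -1.13 in Del417-419insY cells. The lines did not overlap, but the difference was 0.39 with SCF and 1.61 without SCF, and its mean of 1.001 had the largest standard error of the members, 0.29 (limma adjusted p = 0.0457). It was not called when probe sets with names ending in _x_at were left out of the whole fit (limma adjusted p = 0.051). The probe set of Ppp1r16b is not among those, and its difference stayed at 1.001. The p53-binding proteins Ppp1r13l (iASPP) and Ppp1r13b (ASPP1) were higher by 0.54 and 0.52, the inhibitor Ppp1r11 by 0.42 and the glycogen-targeting subunit Ppp1r3f by 0.41. Ppp1r3f also lost its call in the fit without _x_at probe sets (limma adjusted p = 0.051). Its own probe set was kept there and its difference was unchanged. Not called were Ppp1r12a (0.38), the myosin-targeting subunit, Ppp1r16a (-0.22) and Ppp1r21 (-0.24). Ppp1r12a, with a limma adjusted p of 0.0516, was called higher after each of the 3 scalings. It was also called with the probe set of the highest mean and with the intensity trend.

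PP2A regulatory and scaffold subunits had 3 called lower and none higher of 9, where 24.7% of all genes were called lower and 17.9% higher. Ppp2r3c had -0.80 with SCF and -0.44 without SCF in D816V cells, against 0.09 and 0.18 in Del417-419insY cells (difference -0.75, SE 0.13, limma adjusted p = 0.0107). The D816V arrays again were the lower ones. The scaffold Ppp2r1b and the B56-type subunit Ppp2r5c were lower by -0.49 and -0.38. Ppp2r5c lost its call after each scaling, and Ppp2r1b after cyclic loess and quantile normalization. Not called were the scaffold Ppp2r1a (-0.21), the B55-type subunits Ppp2r2a (-0.25) and Ppp2r2d (-0.20), the B56-type subunits Ppp2r5a (-0.17) and Ppp2r5b (0.35), and Ppp2r3d (0.22). Of these, Ppp2r3d was called higher after cyclic loess (0.49, limma adjusted p = 0.0176). Ppp2r5b was called higher with array medians set to 0 (0.47, limma adjusted p = 0.0287). The subunits of PP4 and PP6, namely Ppp4r1, Ppp4r2, Ppp4r3a, Ppp4r3b and Ppp6r3, ranged from -0.33 to 0.13, and none was called.

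PPM phosphatases were 3 lower and none higher of 7 in D816V cells, where 24.7% of all genes were called lower and 17.9% higher. Ppm1k, the mitochondrial enzyme that activates breakdown of branched-chain amino acids, had -1.24 with SCF and -1.32 without SCF in D816V cells, against 0.46 and 0.21 in Del417-419insY cells (difference -1.61, SE 0.12, 3.06-fold lower, limma adjusted p = 0.00093). The lines lay far apart for this gene. Ppm1l, which acts on stress-activated kinase pathways, was -0.99 and -0.91 in D816V cells with and without SCF, against -0.004 and 0.11 in Del417-419insY cells (difference -1.002, SE 0.11, limma adjusted p = 0.00344). Its 2 probe sets gave -1.30 and -0.70. Ppm1f, which dephosphorylates calcium/calmodulin-dependent kinases, was -0.98 and -0.48 in D816V cells with and without SCF, against 0.18 and 0.16 in Del417-419insY cells, a difference of -1.17 with SCF and -0.65 without SCF (mean -0.91, limma adjusted p = 0.0124). Ppm1d, the p53-induced phosphatase WIP1, stood at -0.35, Ppm1h at -0.30, Ppm1a at 0.07 and Ppm1b at 0.14, and none of these passed.

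**Figure D2:**
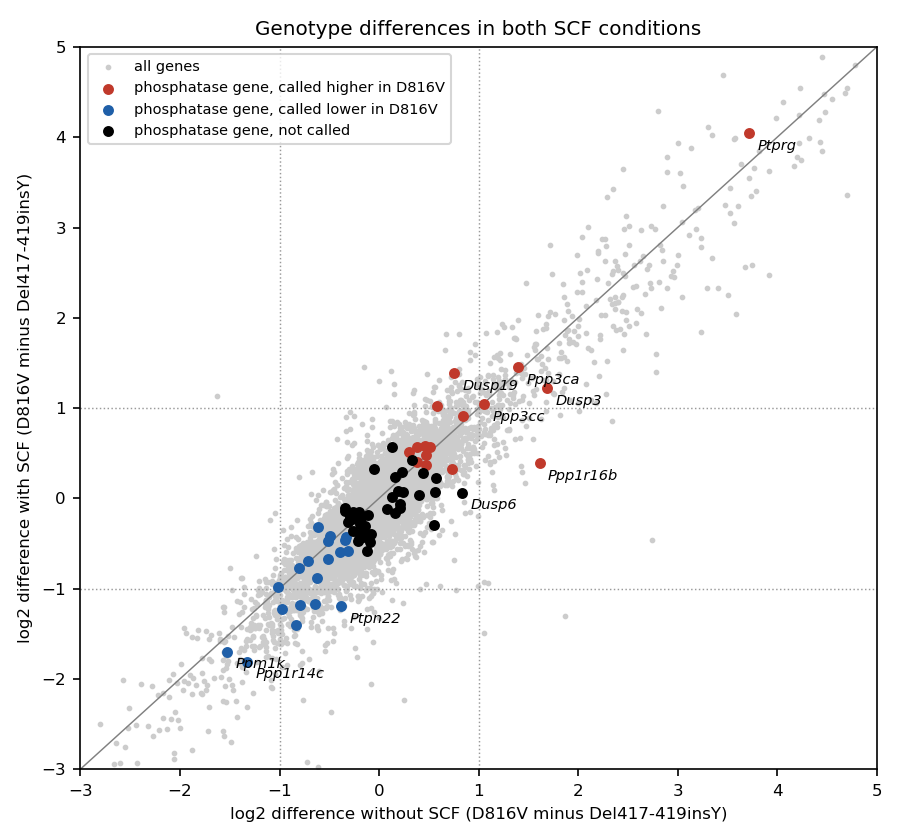
Log2 difference D816V minus Del417-419insY without SCF (x axis) and with SCF (y axis) for all genes (grey) and phosphatase genes (coloured by the limma call). Dotted lines mark 2-fold, the diagonal marks equal differences, and 44 genes lie outside the axes; Ptprg, Ppp3ca, Ppp3cc and Dusp3 are beyond 2-fold in both conditions, while Ppp1r16b and Dusp6 fall below the diagonal.

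Counted by size, without a test, 6 members were 2-fold or more higher in D816V cells with SCF and 5 without SCF, and 4 in both: Ptprg, Dusp3, Ppp3ca and Ppp3cc. With SCF, Ppp3cc was under 2-fold after cyclic loess (0.95) and quantile normalization (0.93), which left 3 in both. Lower by 2-fold or more were 7 with SCF and 3 without SCF, and in both Ppm1k and Ppp1r14c, of which Ppp1r14c was under 2-fold in both conditions after cyclic loess. Over all genes 6.34% and 6.29% were 2-fold higher with and without SCF and 5.15% in both, and 7.42%, 4.18% and 3.78% were lower, so these shares are near the members' 8.22%, 6.85% and 5.48% higher and 9.59%, 4.11% and 2.74% lower. The conditions share no array, though each line was 1 population in both. Both D816V arrays lay above both Del417-419insY arrays for 25 members and below them for 33, where 29.1% and 40.7% of all genes did so.

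Dual-specificity phosphatases outside the MAP kinase phosphatases were 2 higher and 2 lower of 6. Dusp3, or VHR, a small phosphatase able to act on ERK and JNK, had 0.83 with SCF and 0.78 without SCF in D816V cells, against -0.39 and -0.91 in Del417-419insY cells (difference 1.45, SE 0.15, 2.74-fold, limma adjusted p = 0.00278). Dusp19, which binds components of the JNK pathway, had 1.01 and 0.51 in D816V cells with and without SCF, against -0.37 and -0.24 in Del417-419insY cells (difference 1.07, SE 0.18, limma adjusted p = 0.0106). For both genes the D816V arrays were the higher ones. Dusp12 and Dusp28 were called lower, by -0.46 and -0.40, and lost the call under all 3 scalings. Dusp11, an RNA phosphatase, and Dusp18 differed by 0.16 and -0.29 and were not called.

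**Figure D3:**
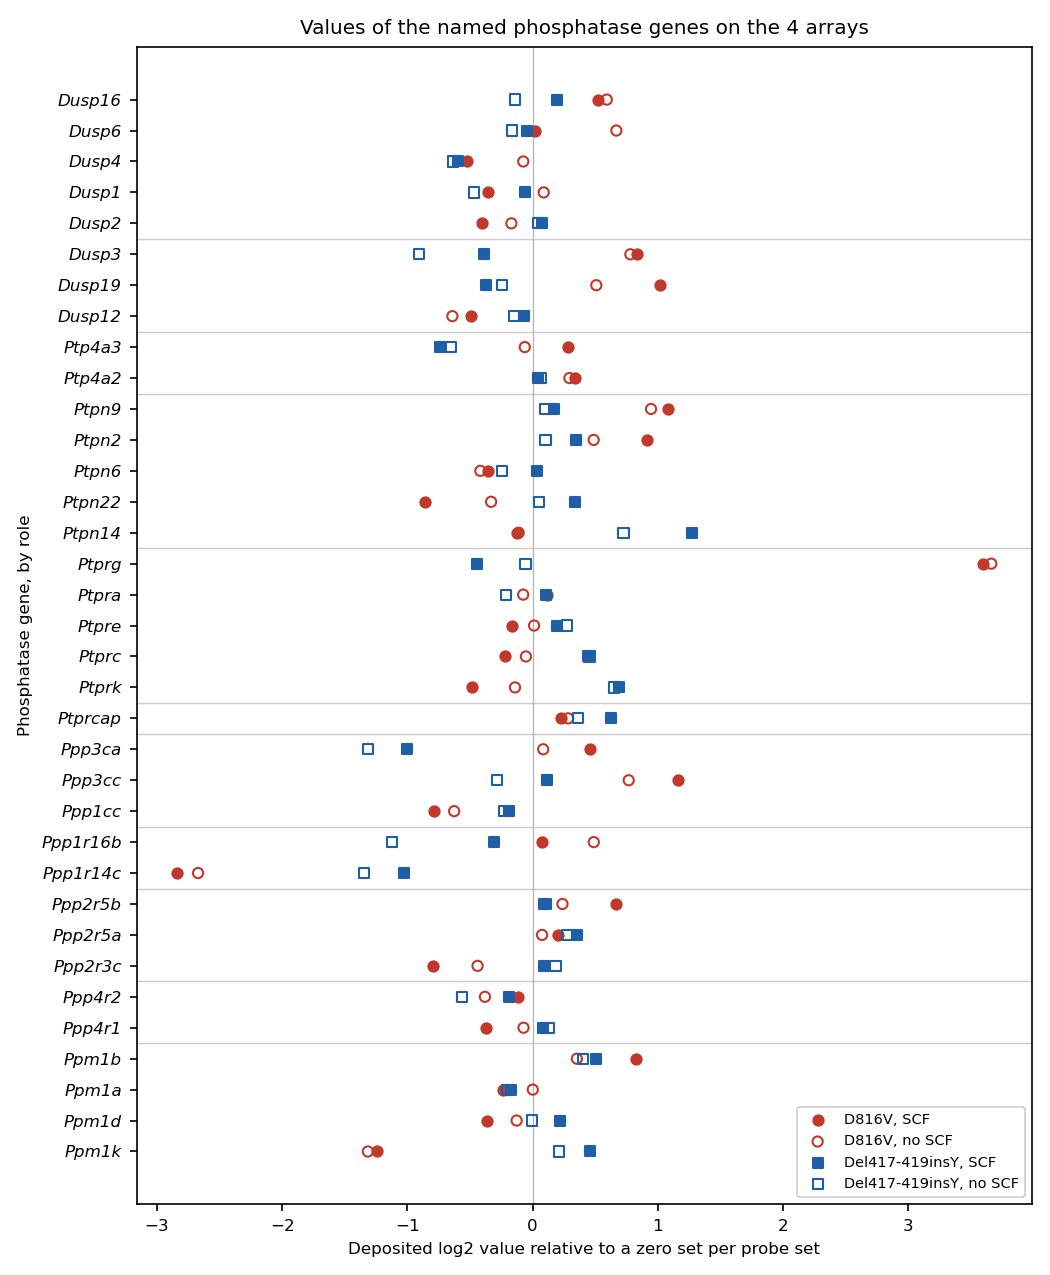
Deposited log2 values of the named phosphatase genes on the 4 arrays (x axis, zero set per probe set), with genes in rows grouped by role. Red circles are D816V cells and blue squares Del417-419insY cells, filled with SCF and open without; the open red circle of Dusp6 at 0.67 stands apart from the other 3 arrays.

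For all 6 measured MAP kinase phosphatases the genotype difference was lower with SCF than without SCF, as it was for 58.3% of all genes. By arithmetic this is the same result as the gap between the SCF responses of the lines given below, and no further one. Dusp6, the cytoplasmic ERK phosphatase and a classic readout of ERK activity, had 0.02 with SCF and 0.67 without SCF in D816V cells, against -0.04 and -0.17 in Del417-419insY cells. The D816V array without SCF was the high one, and the other 3 lay close together. Dusp1, a nuclear phosphatase of p38, JNK and ERK induced as an immediate early gene, had -0.36 and 0.09 in D816V cells with and without SCF, against -0.06 and -0.47 in Del417-419insY cells, so that the order of the lines differed between conditions. Dusp4, another nuclear enzyme, had -0.52 and -0.07 in D816V cells with and without SCF, against -0.60 and -0.64 in Del417-419insY cells.

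The remaining members of this group were Dusp7, an ERK phosphatase of the cytoplasm, Dusp16, which prefers JNK and p38, and Dusp2, a nuclear enzyme of activated blood cells. Dusp16 had 0.52 with SCF and 0.59 without SCF in D816V cells, against 0.20 and -0.14 in Del417-419insY cells. Dusp7 had 0.30 and 0.38 in D816V cells with and without SCF, against 0.08 and -0.20 in Del417-419insY cells. Dusp2 had -0.40 and -0.17 in D816V cells with and without SCF, against 0.07 and 0.04 in Del417-419insY cells. Dusp2 was thus the exception, with both D816V arrays below those of the other line.

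The median genotype difference of the 6 genes was 0.07 with SCF and 0.57 without SCF, beside -0.14 and -0.08 for all genes. By the mean over conditions 1 of 6 passed, Dusp16 (0.53, SE 0.15, limma adjusted p = 0.0383), and none was lower. Dusp6 (0.45, limma adjusted p = 0.129), Dusp7 (0.40, limma adjusted p = 0.0697), Dusp4 (0.32, limma adjusted p = 0.151) and Dusp1 (0.13, limma adjusted p = 0.656) did not, nor did Dusp2 (-0.34, limma adjusted p = 0.0818). Dusp4 and Dusp7 were also called after each of the 3 scalings, and Dusp6 with array medians set to 0.

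No phosphatase gene was called for SCF by the limma fit (0 of 73, beside 0% of all genes higher and 0% lower). At an unadjusted p under 0.05 there were 11 of 73, 15.1%, beside 18.5% of all genes, and the smallest adjusted p of a member was 0.162, for Ptpn18, whose SCF difference was 0.51 in D816V cells and 0.48 in Del417-419insY cells. With array medians set to 0, Ptpn18 was called, the only member in any alternative. No member differed by 2-fold or more with SCF in either line, where 0.328% of all genes were higher and 1.31% lower in D816V cells, and 0.328% higher and 0.547% lower in Del417-419insY cells, and 0.0312% higher and 0.234% lower in both. The SCF differences of the members ranged from -0.76 (Ppp4r3b) to 0.51 (Ptpn18) in D816V cells and from -0.41 (Ppp6r3) to 0.82 (Ppp1r16b) in Del417-419insY cells. How long the cells without SCF were cultured is not stated in the labels, so SCF and time in culture cannot be told apart.

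The sign of the SCF difference was above 0 in both lines for 25 members, beside 32.3% of all genes, and below 0 in both for 19, beside 33.2%. It was above 0 in D816V cells and below 0 in Del417-419insY cells for 7, beside 11.5%. The MAP kinase phosphatases had SCF differences below 0 in D816V cells for 6 of 6 genes, from -0.65 (Dusp6) to -0.07 (Dusp16), and above 0 in Del417-419insY cells for 6 of 6, from 0.03 (Dusp2) to 0.41 (Dusp1). Among all genes 22.7% had this combination of signs, and 22 of all 73 members did. The median SCF difference of all genes was -0.046 in D816V cells and 0.034 in Del417-419insY cells. Dusp2 (0.028) and Dusp4 (0.037) in Del417-419insY cells and Dusp16 (-0.068) in D816V cells lay close to these medians. The SCF difference in D816V cells minus that in Del417-419insY cells restates the change in genotype difference with SCF given above. This gap had a median of -0.06 in all genes, of which 58.3% were below 0. It was below 0 for 6 of 6 MAP kinase phosphatases, with a median of -0.45. It remained below 0 for 6 of 6 after cyclic loess, after quantile normalization and with array medians set to 0, where 49.4%, 49% and 49.3% of all genes were. With medians set to 0, Dusp7 and Dusp16 were slightly above 0 in D816V cells, at 0.01 and 0.03. Several marker lists lay on the same side: 4 of 4 stem and progenitor markers were below 0 with a median of -0.68, 4 of 4 megakaryocyte markers with a median of -0.40, and 3 of 3 granulocyte and monocyte markers with a median of -0.21. Of mast cell markers 3 of 7 were below 0, and of 5 erythroid markers and 1 lymphoid marker none. The part of these shifts in the pattern was not tested. With 1 array per group this difference cannot be tested, and each of the 6 genes had 1 probe set.

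**Figure D4:**
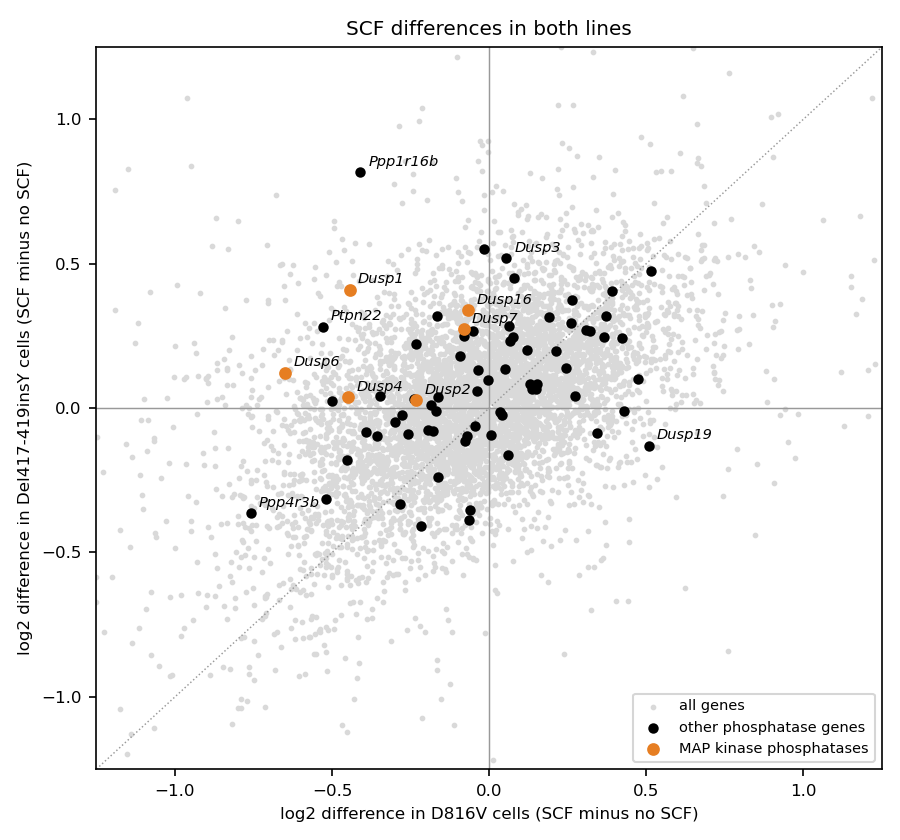
Log2 difference SCF minus no SCF in D816V cells (x axis) and Del417-419insY cells (y axis) for all genes (grey, 56 outside the axes), MAP kinase phosphatases (orange) and other phosphatase genes (black). The dotted diagonal marks equal responses; all 6 orange points lie in the upper left area, with Dusp6 at -0.65 and 0.12.

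Beyond this group, the largest gap between the SCF responses was that of Ppp1r16b, -0.41 in D816V cells and 0.82 in Del417-419insY cells, a gap of -1.23. Ptpn22 followed with -0.53 in D816V cells and 0.28 in Del417-419insY cells. Dusp19 went the other way, with 0.51 in D816V cells and -0.13 in Del417-419insY cells. None of the 73 members had differences of 1.5-fold or more in opposite directions, as 0.234% of all genes did.

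The upstream bases of Dusp1, Dusp6 and Ptpn22 are shown because these genes had the widest gaps between the SCF responses after Ppp1r16b:
Dusp1: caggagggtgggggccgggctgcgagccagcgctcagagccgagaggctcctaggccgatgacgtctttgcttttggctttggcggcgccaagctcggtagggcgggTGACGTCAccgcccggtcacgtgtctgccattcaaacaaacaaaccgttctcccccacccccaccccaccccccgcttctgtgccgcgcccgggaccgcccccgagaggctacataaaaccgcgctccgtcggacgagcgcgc
Dusp6: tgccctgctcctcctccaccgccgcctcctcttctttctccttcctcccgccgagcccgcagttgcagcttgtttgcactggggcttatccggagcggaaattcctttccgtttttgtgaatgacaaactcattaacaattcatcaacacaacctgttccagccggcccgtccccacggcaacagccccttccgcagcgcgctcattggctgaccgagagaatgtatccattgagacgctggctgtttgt
Ptpn22: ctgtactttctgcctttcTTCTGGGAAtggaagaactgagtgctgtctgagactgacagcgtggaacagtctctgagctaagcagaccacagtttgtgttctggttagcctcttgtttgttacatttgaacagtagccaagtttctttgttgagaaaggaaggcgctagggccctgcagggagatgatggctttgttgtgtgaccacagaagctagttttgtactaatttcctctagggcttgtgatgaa
These are, from RefSeq on GRCm38.p6, chr17:26508473-26508722 on the minus strand, chr10:99262981-99263230 on the plus strand and chr3:103860027-103860276 on the plus strand, each the 250 bases before a start, 5′ to 3′. Where a gene had several starts, the one with most motif matches is printed. Capitals mark matches to 4 motifs searched on both strands: TGACGTCA, the cyclic AMP response element (CRE); TGANTCA, the AP-1 site; CCGGAAGT, an ETS site; and TTCNNNGAA, the STAT site known as GAS. None of these patterns contains another, and no matches overlapped in the printed stretches.

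Dusp1 held a CRE from 143 to 136 bases before its start, and Ptpn22 a GAS match from 232 to 224 bases before; Dusp6 held none. In all 32851 promoters of the table the CRE occurred in 1.55%, AP-1 in 6.75%, ETS in 2.88% and GAS in 7.02%. Of the 73 members 58 had an entry, with 69 promoters in all, and these shares were 7.25%, 1.45%, 7.25% and 5.8%. They rest on 5, 1, 5 and 4 promoters. Starts of the same gene were counted separately, so Ppp2r2d entered the CRE count and Ppp4c the ETS count repeatedly. The median G and C content was 63.2% in members and 52.4% in all promoters. A match is a stretch of letters and no measured binding site.

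Genes of the same pathways were counted from lists of non-members. The background for these lists is all genes, of which 17.9% were called higher and 24.7% lower, with a median difference of -0.10. Of 38 measured genes for other phosphatases 5 were called higher and 13 lower in D816V cells, with a median difference of -0.27. Inpp5a, which degrades inositol trisphosphate, was 2-fold or more higher in both conditions (mean 1.95), and Ctdspl, Tns3 and Cdc14b were lower (-2.16, -1.59 and -1.31). Inpp5d, which encodes the lipid phosphatase SHIP1, did not pass at -0.24.

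Of 23 measured genes of the MAP kinase cascade 5 were higher and 5 lower, with a median of -0.06, and Map3k8, a kinase upstream of ERK, stood out at 1.86. Among 22 genes of KIT-proximal signalling 4 were higher and 6 lower, with a median of -0.14; Socs1, a feedback inhibitor of JAK kinases, was at 2.26, the lipid kinase gene Pik3cd at 1.46 and Kit itself at -1.42. The SCF difference in D816V cells minus that in Del417-419insY cells was below 0 for 18 of these 22 genes and for 15 of the 23 cascade genes, with medians of -0.24 and -0.07. Among all genes 58.3% were below 0, with a median of -0.06. The labels do not say if RNA of the transduced constructs is also read by the Kit probe sets.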

How the data were processed

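RNA of 4 EML cultures was hybridised to Affymetrix mouse arrays, 1 array per culture. RMA was the method behind the deposited values, per the notes of the submitters on processing, and they are taken as log2, the scale RMA gives; the centring of probe sets and the filter that left 10861 probe sets are not given in the sources used here. No brightness was used, so signal over background could not be examined.

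Gene symbols came from the platform annotation (9633 probe sets with 1 symbol, 264 with several, 964 with none; only those with 1 were used) and were checked by gene ID against RefSeq GRCm38.p6. Probe sets of a gene were averaged. In 18 of the 21 members with several, all probe sets lay on 1 side in the mean genotype difference. limma 3.58.1 in R 4.3.3 was fitted on ~ genotype + SCF over all 6404 genes (two-sided, Benjamini-Hochberg over all genes, adjusted p under 0.05), with 1 residual degree of freedom, a prior of 4.1 degrees of freedom and a prior SD of 0.127; it was tested on simulated data. Nothing in the labels names repeat cultures. Differences between single arrays were counted at 2-fold without a test.

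Members, lists and tests were chosen with earlier results of these data known. The rule named members with a genotype difference of 2-fold in both SCF conditions or an SCF difference of 2-fold in either line (none), the 5 with the largest gap between SCF responses, a list of well-known members (15 of 23 measured), and the extremes of each role; other members, some with array values, are named outside it, chosen after their values were seen, so that all 73 are accounted for. Alternatives were cyclic loess, quantile normalization, array medians set to 0, the probe set with the highest mean, no probe sets ending in _x_at, an intensity trend, robust eBayes, no SCF term, an adjusted p under 0.1 and 1.5-fold.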

Additional observations from a re-analysis of the deposited data

How the results depend on the processing

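No paired analysis was possible because each group had 1 array and the labels give no replicate numbers; for the same reason no array could be left out of the fit with a test remaining. Of 106 comparisons of a count with its alternative, 92 stayed within 1.5 times. Many of these were SCF counts of 0 that stayed 0, which say little about stability. Members 2-fold lower in D816V cells numbered 4 with SCF, 1 without SCF and 1 in both after cyclic loess. Members called lower were 12 after quantile normalization, and 8 were called higher and 12 lower without the SCF term, which leaves SCF in the error. With array medians set to 0, 1 member was called higher for SCF. Further uncalled members gained a genotype call: Ppp2cb was called higher after cyclic loess, and Ptp4a2 and Ptpn3 with array medians set to 0. Ptpn3 was also called with the intensity trend, and Ppp6r3 was called lower with the probe set of the highest mean. At 1.5-fold, 10 members were higher without SCF and 7 in both, 13 were lower with SCF, 11 without SCF and 10 in both, 2 were lower with SCF in D816V cells and 1 higher in Del417-419insY cells. Of 350 mean genotype and mean SCF differences of named genes under 5 alternatives, 6 lost and 6 gained the call, all of them genotype differences. A further 10, all of them SCF differences that were not called, changed sign. Dusp1 (-0.02 as deposited) was at 0.041, 0.080 and 0.045 after cyclic loess, after quantile normalization and with array medians set to 0, Ppm1d (-0.007) at 0.040, 0.081 and 0.056, and Ppp1cc (-0.061) at 0.031, 0.059 and 0.001 in the same order, and Ptpn22 (-0.12) at 0.024 after quantile normalization. Setting array medians to 0, cyclic loess and quantile normalization moved the median genotype difference of all genes from -0.10 to 0.02, 0.04 and 0.00. Members that lost a genotype call under these scalings had deposited differences from -0.38 (Ppp2r5c) to -0.50 (Ppp1cc). Those that gained one had deposited differences from -0.002 (Ppp2cb) to 0.45 (Dusp6). The cause of these changes was not tested.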

Other observations

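Of the probe sets that carry several symbols, 7 include a phosphatase symbol and were left out of the counts. The 4 shared by Ptp4a1, another PRL phosphatase, and Gm13363 all lay lower in D816V cells, by -0.89, -0.65, -0.61 and -0.53, whereas Ptp4a2 and Ptp4a3 lay higher. A probe set shared by Ppp1r14c and Gm14057 differed by -0.62, on the same side as the Ppp1r14c probe set used above. The one shared by Ppp1r3f and Ccdc22 differed by 1.28, and the one shared by Ppp1r10 and Gm8801 by -0.23. Which of the paired genes these probe sets read was not tested.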
